A study of Mus musculus with 11 samples.

Results

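The genes described here carry fatty acids from circulating lipoproteins into the fat cell: Lpl, Gpihbp1, Vldlr, Lrp1, Cd36, Slc27a1, Acsl1, Fabp4 and Fabp5. They were listed by their known roles in lipoprotein lipolysis, fatty acid uptake and fatty acid binding. The rule uses no measured value, but the list was drawn up with earlier results of these data known. Of these 9 genes, 8 had a probe set with their symbol in the platform annotation, out of 12709 genes measured; Acsl1, the enzyme that couples incoming fatty acids to coenzyme A, was not analysed here. Fabp4 has a second role in the design, because its promoter, known as aP2, drove the transgene of the rescue line. The 8 genes were covered by 22 probe sets: 6 for Vldlr, 4 for Fabp4, 3 for Cd36, 2 each for Lpl, Lrp1, Slc27a1 and Fabp5, and 1 for Gpihbp1. All 22 lay within the brighter 60% of probe sets that entered the comparison.

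Epididymal fat, the visceral depot beside the mouse testis, was taken from male C57BL/6 mice aged 3 months and fed standard chow. The 3 genotypes were wild type (B1+/+, 4 arrays), a line lacking the kinin B1 receptor (B1-/-, 4 arrays) and a line lacking the endogenous receptor but carrying the receptor under the aP2 promoter (aP2B1-B1-/-, 3 arrays), here called the fat rescue. The last 2 lines share the receptor deletion, and the aP2 promoter, although used as a fat promoter, is also known to be active in macrophages. The labels call the arrays of a genotype biological replicates and name no litter. One array is one sample throughout, and precision is set by how few arrays there were.

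Lipoprotein lipase, the product of Lpl, is made by fat cells and carried across the capillary wall by Gpihbp1, an endothelial surface protein. There it frees fatty acids from triglyceride-rich lipoproteins, while Vldlr and Lrp1 are cell surface receptors that bind such particles. The freed fatty acids enter the fat cell with the help of Cd36 and Slc27a1, are activated by enzymes such as Acsl1, and are bound in the cytosol by Fabp4 and Fabp5. Several of these genes are textbook targets of PPAR gamma, the master regulator of fat cell differentiation.

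Signals are the authors' linear array intensities, scaled on every array to the same trimmed mean of 200. The signal of a typical probe set (the array median) was 41.3 to 45.1 in wild type. It was 46.5 to 48.8 in the knockout and 45.6 to 46.6 in the fat rescue, so all wild type medians lay below all others. Median centring, among the alternatives given at the end, sets these medians equal. A probe set's signal depends on its own probes, so levels are compared between arrays and not between genes. Differences were estimated on the log2 scale with limma in 1 model of all 11 arrays, with p-values adjusted over all 12709 genes by the Benjamini-Hochberg method. A gene passed at an adjusted p under 0.05. Along the first principal component of the arrays (27.3% of the variance), wild type 1 (-45.39) and fat rescue 1 (-34.07) stood apart from the others, which ranged from -15.6 to 26.46. The tissue label was matched by high adipocyte markers, and the 1 epididymis marker that was bright enough to be measured stayed below every array's median, with signals of 14.3 to 40.6.

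The promoters of Vldlr and Cd36 are shown because these were the only genes of the set whose fat rescue arrays all lay below all wild type arrays. Each is the 250 bases before an annotated transcription start in RefSeq (assembly GRCm38.p6), which held windows for 5 of the 9 genes: Vldlr, Cd36, Slc27a1, Acsl1 and Lrp1. The windows lie upstream of the gene, outside its exons for that transcript. Vldlr has a second window there, which starts at base 27216770 of the same chromosome and is not shown. The first Vldlr window lies at chr19:27216234-27216483 on the plus strand and the Cd36 window at chr5:17835897-17836146 on the minus strand, and capitals mark motif matches on either strand.
Vldlr: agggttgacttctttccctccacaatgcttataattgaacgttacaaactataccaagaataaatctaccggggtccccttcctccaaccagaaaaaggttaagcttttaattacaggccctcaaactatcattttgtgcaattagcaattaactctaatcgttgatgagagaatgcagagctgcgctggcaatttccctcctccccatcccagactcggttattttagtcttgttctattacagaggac
Cd36: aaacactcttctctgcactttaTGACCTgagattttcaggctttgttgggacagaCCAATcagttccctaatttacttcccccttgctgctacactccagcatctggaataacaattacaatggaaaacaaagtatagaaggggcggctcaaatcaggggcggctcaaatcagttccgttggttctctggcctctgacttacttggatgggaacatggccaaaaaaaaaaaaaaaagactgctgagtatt
The Cd36 window held the nuclear receptor core site AGGTCA, read on the other strand, and a CCAAT box. The core site occurred in 14.0% and the CCAAT box in 33.8% of all 32851 windows of this length, with both strands read. The first Vldlr window held none of the motifs searched and the second held a CCAAT box. The other motifs searched were TATAAA (the TATA box, 12.4% of windows), TGACTCA (the AP-1 site, 4.46%), CACGTG (an E-box, 6.02%) and the core site as a direct repeat with 1 base between (0.0335%). These matches describe the letters in the window and no binding was measured.

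None of the 8 genes passed in any of the 3 comparisons of genotypes. The background was low as well: 5 of the 12709 genes passed between knockout and wild type (0.0393%), 2 between fat rescue and wild type (0.0157%) and 0 between fat rescue and knockout (0%), where 484 genes had an unadjusted p under 0.05 (3.81%). Against wild type, the mean was lower in the knockout for 6 of the 8 genes, where 46.3% of all genes were lower, and lower in the fat rescue for 6 of 8, where 44.3% of all genes were lower. The median log2 difference of the 8 genes was -0.09 in the knockout and -0.07 in the fat rescue, beside 0.016 and 0.028 over all genes. Under quantile normalization both medians turned, to 0.034 with 3 of 8 genes lower in the knockout and to 0.010 with 2 of 8 lower in the fat rescue. Fabp4, counted among the 3, had a difference that rounded to 0. Quantile normalization gives each rank the same value on every array, so a gene ranked near the top of all arrays can differ little. The SE of the Fabp4 difference between knockout and wild type fell from 0.14 to 0.054 under it. For the brightest genes, the quantile-normalized values thus cannot decide a direction. The sign of the set's median depended on the scaling. Between fat rescue and knockout, 4 of the 8 genes had the lower mean in the fat rescue (all genes, 47.4%), and the median was 0.027 beside 0.010 over all genes. Both comparisons with wild type share the 4 wild type arrays, so their values are not independent of each other. An unadjusted p under 0.05 was found for Vldlr and Gpihbp1 in the knockout against wild type, where 7.3% of all genes had one, and for Vldlr alone in the fat rescue against wild type, where 8.09% had one. Groups that did not overlap, with the first group lower, were found for 0 of the 8 genes between knockout and wild type (all genes, 1.86%), 0 between fat rescue and knockout (2.09%), and 2, Vldlr and Cd36, between fat rescue and wild type (3.5%).

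**Figure D1:**
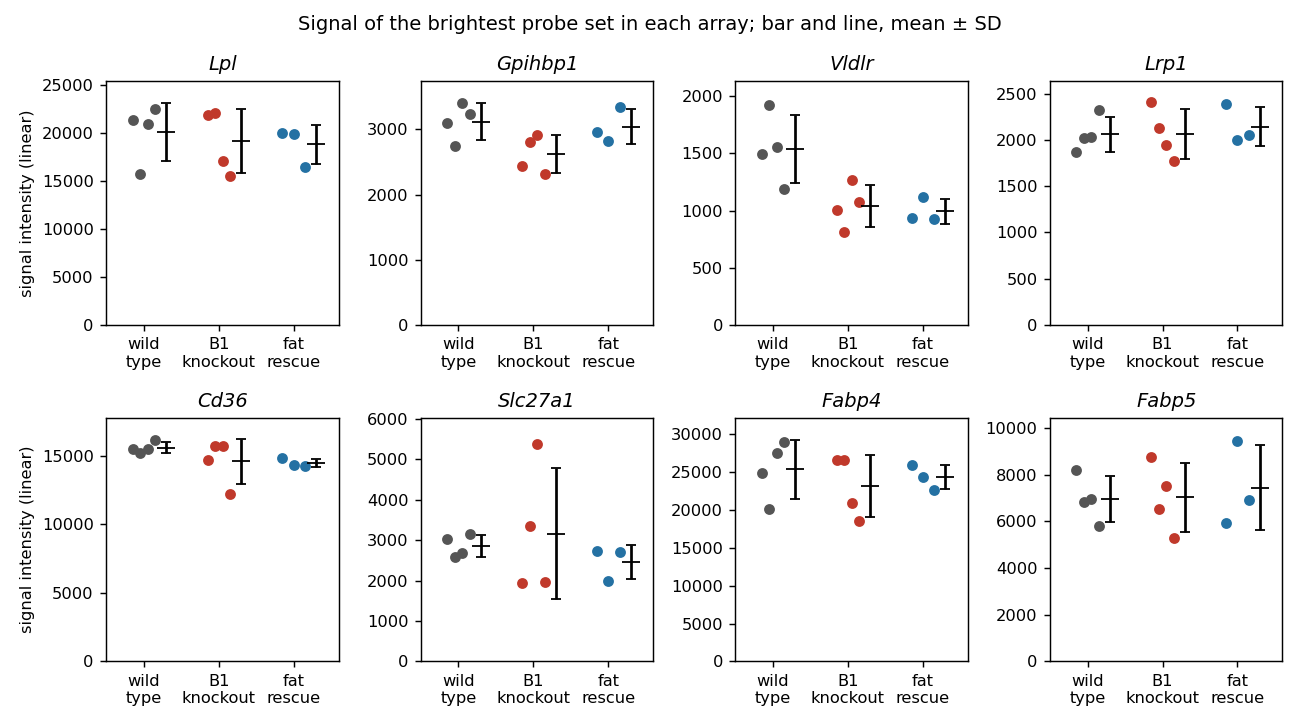
Signal intensity (linear, scaled to a trimmed mean of 200) of the brightest probe set of each of the 8 genes, 1 point per array, with mean and SD beside the points, for wild type (n = 4), B1 knockout (n = 4) and fat rescue (n = 3). The Vldlr points of both receptor-null lines sit low, between 809.8 and 1263.1 against 1189.8 to 1920.6 in wild type, while the points of the other genes are intermixed or, for Cd36, separated by a small distance.

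Lpl, the lipase itself, had overlapping signals in the 3 genotypes. Its signals were 21343, 15702.4, 20884.8 and 22507.8 in the wild type arrays. The knockout arrays gave 21854.7, 22047.6, 17041.5 and 15498.7, and the fat rescue arrays 20022.1, 19883.2 and 16446.3. High and low arrays were present in every genotype, and the groups overlapped. The log2 difference was -0.08 ± 0.15 (SE) for knockout minus wild type (limma adjusted p 0.921) and -0.09 ± 0.16 for fat rescue minus wild type (adjusted p 0.913). The 95% interval of the knockout difference ran from -0.39 to 0.24, so these arrays could not tell a difference within that range from none. The second Lpl probe set had the same order of group means, at 16814 ± 1721 (SD, n = 4) in wild type, 15170 ± 1937 (n = 4) in the knockout and 14052 ± 2021 (n = 3) in the fat rescue.

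Gpihbp1, the endothelial protein that holds the lipase on the capillary wall, had its lowest mean in the knockout. The wild type arrays gave 3092, 2740.4, 3410.8 and 3239.4, the knockout arrays 2437, 2811.2, 2911.9 and 2308.5, and the fat rescue arrays 2956.8, 2821.9 and 3350.2. The knockout arrays were on the low side, but 2 of them lay above the lowest wild type array, and the fat rescue arrays lay within the wild type range. The fitted knockout level differed from wild type by -16.3%, a log2 difference of -0.26 ± 0.10 (unadjusted p 0.024, limma adjusted p 0.682). The fat rescue lay 0.22 ± 0.11 above the knockout on the log2 scale (adjusted p 0.998) and -0.04 ± 0.11 from wild type (adjusted p 0.956). The mean log2 signal of 12 endothelial markers was lower by 0.10 in the knockout than in wild type and higher by 0.19 in the fat rescue than in the knockout. Relative to those markers, the Gpihbp1 difference was -0.15 for knockout minus wild type (exact permutation test, two-sided, p 0.143) and 0.032 for fat rescue minus knockout (p 0.743). Over the 11 arrays Gpihbp1 had a Pearson r of 0.718 with the endothelial marker mean. In whole tissue, fewer cells of a type and less RNA per cell cannot be told apart.

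Vldlr, the very low density lipoprotein receptor, had the largest fitted differences from wild type of the 8 genes, in both lines. Between fat rescue and knockout the difference was small with its brightest probe set. Its brightest probe set gave 1494.3, 1920.6, 1553.9 and 1189.8 in wild type. The knockout arrays gave 1006.2, 809.8, 1263.1 and 1076.5, and the fat rescue arrays 938.1, 1116.6 and 921.7. Every fat rescue array lay below every wild type array, whereas wild type 4 lay below knockout 3. Group means were 1539.6 ± 299.9 (SD, n = 4), 1038.9 ± 187.3 (n = 4) and 992.13 ± 108.1 (n = 3).

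The fitted Vldlr level of the knockout differed from wild type by -32.4%, a log2 difference of -0.56 ± 0.15 (SE) with a 95% interval of -0.89 to -0.24. The fat rescue differed by -34.9%, at -0.62 ± 0.16 with an interval of -0.97 to -0.26. Neither passed: limma's unadjusted p was 0.0027 and 0.0024, and the p adjusted over all genes was 0.479 and 0.397. The exact two-sided permutation test gave p 0.0571 in each comparison, which for 4 arrays against 3 is the smallest it can give, and 0.457 after adjustment over the 24 such tests. Fat rescue and knockout differed by -0.05 ± 0.16 (limma adjusted p 0.998), with an interval of -0.41 to 0.30 that holds differences in both directions. The moderated F test over the 3 genotypes gave an unadjusted p of 0.0029 and an adjusted p of 0.500, where 5 genes passed (0.0393%).

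All 6 Vldlr probe sets had a lower mean in both receptor-null lines than in wild type. In the knockout the log2 differences ran from -0.56 to -0.26 and in the fat rescue from -0.77 to -0.25. Fitted one by one among all 45037 probe sets, 3 of the 6 had an unadjusted p under 0.05 in the knockout, where 2.34% of all probe sets were lower at that level, and 4 of the 6 in the fat rescue, where 2.82% were. The smallest limma p adjusted over all probe sets was 0.511 and 0.4. Between fat rescue and knockout the log2 differences ran from -0.41 (1442169_at, limma unadjusted p 0.040) to 0.26 (1451156_s_at). Of the 6 probe sets, 4 were lower in the fat rescue than in the knockout. Probe sets of a gene read the same RNA on the same arrays, so they repeat the measurement and do not add animals.

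The Vldlr probe set 1442169_at separated the groups most clearly. It read 113, 117.7, 128.4 and 125.4 in wild type, 72.7, 97.6, 111.2 and 100.8 in the knockout, and 78.8, 67.4 and 67.1 in the fat rescue. All knockout and all fat rescue arrays lay below all wild type arrays, as did 1.35% and 2.68% of all probe sets in those comparisons. The second brightest, 1417900_a_at, had means of 667.85 ± 115.8 in wild type, 548.72 ± 36.8 in the knockout and 501.57 ± 28.48 in the fat rescue, and wild type 4 at 512.3 lay inside the range of both other lines. The dimmest, 1451156_s_at, read 29.9 to 65.7, close to the array medians, and its fat rescue arrays spread from 29.9 to 64.1.

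**Figure D2:**
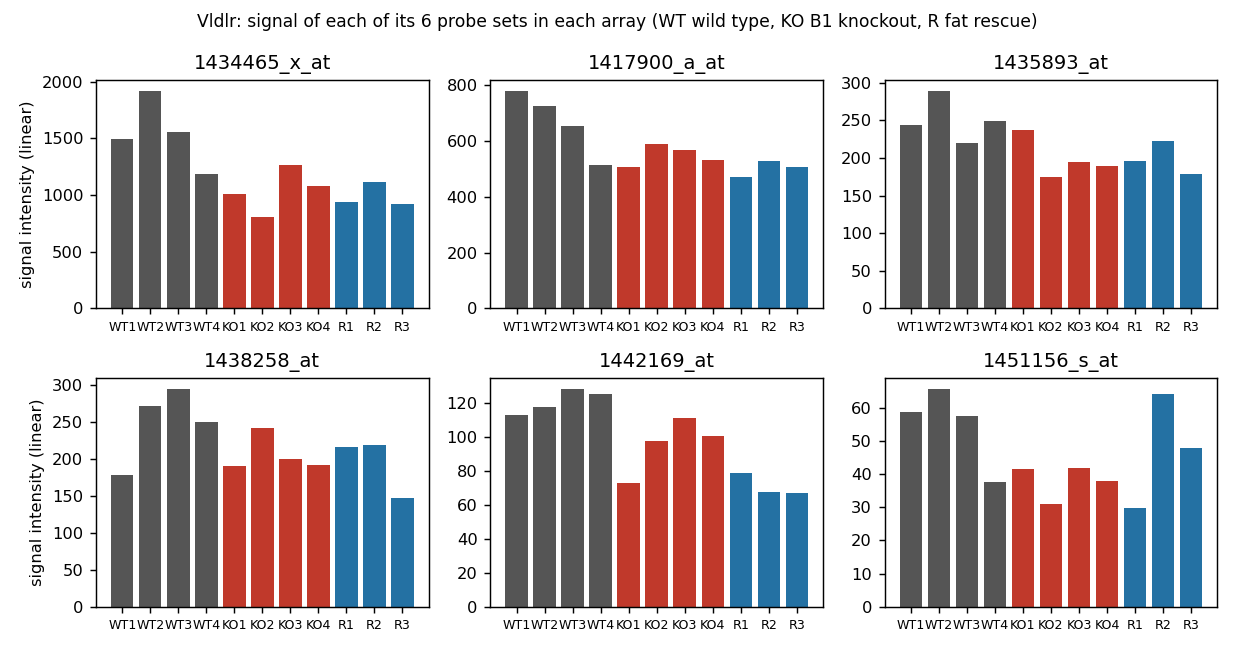
Signal intensity (linear, each panel with its own axis from 0) of each of the 6 Vldlr probe sets in each array, 1 bar per array (WT wild type, KO B1 knockout, R fat rescue). The grey wild type bars are on average the tallest in every panel, and in the panel of 1442169_at all 4 exceed every other bar.

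Vldlr did not follow the general fat cell markers over the arrays. The 7 adipocyte markers measured (of 10 listed) were all lower in the knockout than in wild type, with a median log2 difference of -0.25 and 0 of 7 passing, and their summed signal ranged from 61891 to 80867 in wild type, 56001 to 75290 in the knockout and 58138 to 71792 in the fat rescue. All 12 macrophage markers had a higher mean in the knockout, as did 6825 of all 12709 genes, and 0 of 12 passed. In the fat rescue 11 of the 12 had a higher mean than wild type, as did 7079 of all genes, and 0 passed. A limma unadjusted p under 0.05 was found for 1 of the 12 in the knockout and 5 in the fat rescue. Over all genes the shares were 7.3% and 8.09%. The summed macrophage marker signals were 14812 to 20882 in wild type and 20518 to 25062 in the fat rescue. In the knockout they were 30684 in knockout 1 and 19815, 16265 and 18359 in the others, which lay within the wild type range. Summed mesothelial markers were 2818.5 to 4683.3 in wild type, 4119.1 to 5396.8 in the knockout and 5018.5 to 5612.9 in the fat rescue. All fat rescue arrays lay above all wild type arrays in this sum. The 3 brown fat markers measured (of 5 listed) had median log2 differences from wild type of -0.67 in the knockout and -1.33 in the fat rescue, and 0 of 3 passed. Cox8b and Cidea were lower in both lines, while Ppargc1a differed by 0.12 and -0.27. Cox8b in the fat rescue fell just short of passing, at -1.33 (limma unadjusted p 1.6e-05, adjusted p 0.0507). The summed signal of the 3 was 384.2 to 529.2 in wild type, 266.3 to 410.9 in the knockout and 163.1 to 283.3 in the fat rescue. Fat rescue and wild type did not overlap. Ucp1, the defining gene of brown fat, was among the dimmer probe sets that were not kept. The ratio of 3' to 5' signal of the Actb control probe sets, a sign of RNA integrity and of the labelling, was 1.651 to 1.826 in wild type and 1.472 to 1.555 in the fat rescue, without overlap, and 1.531 to 1.686 in the knockout. The Gapdh ratio overlapped between groups (0.8645 to 1.029 over all arrays). Apart from the adipocyte markers, whose values follow, their part in the Vldlr and Cd36 differences was not tested.

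Expressed relative to the mean log2 signal of the 7 adipocyte markers, Vldlr was lower by 0.34 in the knockout than in wild type (exact permutation test, two-sided, p 0.343) and lower by 0.45 in the fat rescue (p 0.171). These were 2 of 15 such tests, with adjusted p 0.667 for both, and the groups overlapped in each. The within-genotype SD of Vldlr grew from 0.25 to 0.37 on the log2 scale when the markers were subtracted. The r of Vldlr with the adipocyte marker mean over the 11 arrays was 0.132.

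Lrp1, a large receptor that takes up lipoprotein remnants and many other ligands, was level across the genotypes. The arrays gave 1871.4, 2024.4, 2026.9 and 2322.5 in wild type, 2409.7, 2125.2, 1946.9 and 1776.7 in the knockout, and 2386.2, 1996.5 and 2048.9 in the fat rescue. The wild type range lay inside the knockout range. The log2 differences from wild type were -0.0024 ± 0.11 for the knockout and 0.056 ± 0.11 for the fat rescue (limma adjusted p 0.996 and 0.928), and the interval of the knockout difference ran from -0.23 to 0.23. The second Lrp1 probe set was far dimmer, between 60.7 and 212.6, and its means of 109.6 ± 34.2, 123.4 ± 22.37 and 150.5 ± 62.05 overlapped within their SD.

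Cd36, the membrane protein that facilitates the uptake of long-chain fatty acids, had small differences and a tight spread. Its brightest probe set read 15524.5, 15209, 15486.8 and 16194.4 in wild type. The knockout arrays read 14732.8, 15747.8, 15713.4 and 12198.7, and the fat rescue arrays 14835.5, 14366.3 and 14230.3. All fat rescue arrays lay below all wild type arrays, and the knockout arrays overlapped both lines, with knockout 4 far below the rest. The log2 difference was -0.11 ± 0.10 for fat rescue minus wild type, or -7.21% (limma adjusted p 0.812; exact permutation p 0.0571, the smallest 4 against 3 can give, and 0.457 adjusted over 24 tests). It was -0.10 ± 0.09 for knockout minus wild type (limma adjusted p 0.814).

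The 3 Cd36 probe sets had the same direction in both lines. The log2 differences of the other 2 were -0.19 and -0.21 in the knockout and -0.18 and -0.20 in the fat rescue, each with an SE of 0.10 to 0.12. The groups of fat rescue and wild type also stayed apart with 1423166_at and overlapped with 1450884_at. Against the adipocyte markers the sign turned: Cd36 was higher than wild type by 0.12 in the knockout (exact permutation p 0.4) and by 0.061 in the fat rescue (p 0.514).

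Slc27a1, a transporter that also activates fatty acids, varied more between knockout arrays than between genotypes. Wild type arrays gave 3026.2, 2582.2, 2694.5 and 3162.2, and fat rescue arrays 2727.7, 1981.5 and 2695.5. The knockout arrays were 1937.7, 3356.8, 5390.2 and 1961.5, so that the lowest and the highest array with this probe set were both knockouts. The second probe set gave 1621.3, 2592.4, 3279.8 and 1618.9 in the same 4 arrays, while its lowest array was fat rescue 2, at 1496.5. Both probe sets had an r of 0.969 with each other over the 11 arrays, so the spread was seen with separate probes. The within-genotype SD was 0.46 on the log2 scale, the largest of the 8 genes, where the median of all genes was 0.22. The knockout difference from wild type was 0.012 ± 0.26 (limma adjusted p 0.995) and that of the fat rescue -0.23 ± 0.28 (adjusted p 0.864). Over the arrays Slc27a1 had an r of -0.592 with the macrophage marker mean, and its part in this spread was not tested.

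Fabp4, the fatty acid binding protein of fat cells, is the gene whose promoter drives the transgene. Its brightest probe set gave 24836.3, 20131.4, 27472.7 and 29006.4 in wild type. The knockout arrays gave 26539.2, 26587.2, 20886 and 18597.8, and the fat rescue arrays 25939.6, 24407.9 and 22675.7. The fat rescue arrays lay inside the range of both other genotypes. The log2 difference was 0.09 ± 0.15 for fat rescue minus knockout, -0.05 ± 0.15 for fat rescue minus wild type and -0.13 ± 0.14 for knockout minus wild type (limma adjusted p 0.998, 0.959 and 0.841). The 95% interval between fat rescue and knockout ran from -0.25 to 0.42.

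Bdkrb1, which encodes the B1 receptor and is the cargo of the transgene, read 73.4, 57.8 and 60.4 in the fat rescue arrays. The same probe set read 5.5, 32.2, 3.7 and 8.9 in wild type and 4.8, 29.4, 6.9 and 29.7 in the knockout. All rescue arrays were above all others, while wild type and knockout overlapped at signals below the array medians. Among the 3 rescue arrays, the one with the highest Bdkrb1 signal was also the one with the highest Fabp4 signal, but Fabp4 of the other two was in the opposite order to Bdkrb1. With 3 arrays no relation between the levels can be tested.

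The Fabp4 signal was close to the highest signal on each array. It reached 91.8% to 99.9% of the highest signal of its array and had an r of 0.981 with that maximum over the 11 arrays. For Lpl the share was 72.1% to 82.7% (r 0.961) and for Cd36 53.7% to 69.8% (r 0.702). The scaling sets each array's trimmed mean and not its maximum, which ranged from 19770.1 to 29452.6. Whether these probe sets were saturated was not analysed here.

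The 4 Fabp4 probe sets disagreed with each other from array to array. The second brightest, 1451263_a_at, read 6993, 11216.1, 5021.1 and 4331.5 in wild type, 4960.4, 5302.4, 10145.2 and 6528 in the knockout, and 4906.3, 4576.7 and 7235.9 in the fat rescue. It was high where the brightest was low, with an r of -0.767 between them, while 1424155_at and 1425809_at had r of 0.43 and 0.447 with the brightest. In the knockout against wild type the brightest had a log2 difference of -0.13 and the other 3 of 0.0075, 0.039 and 0.10. No Fabp4 probe set had a p under 0.05 in any comparison when fitted singly.

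**Figure D3:**
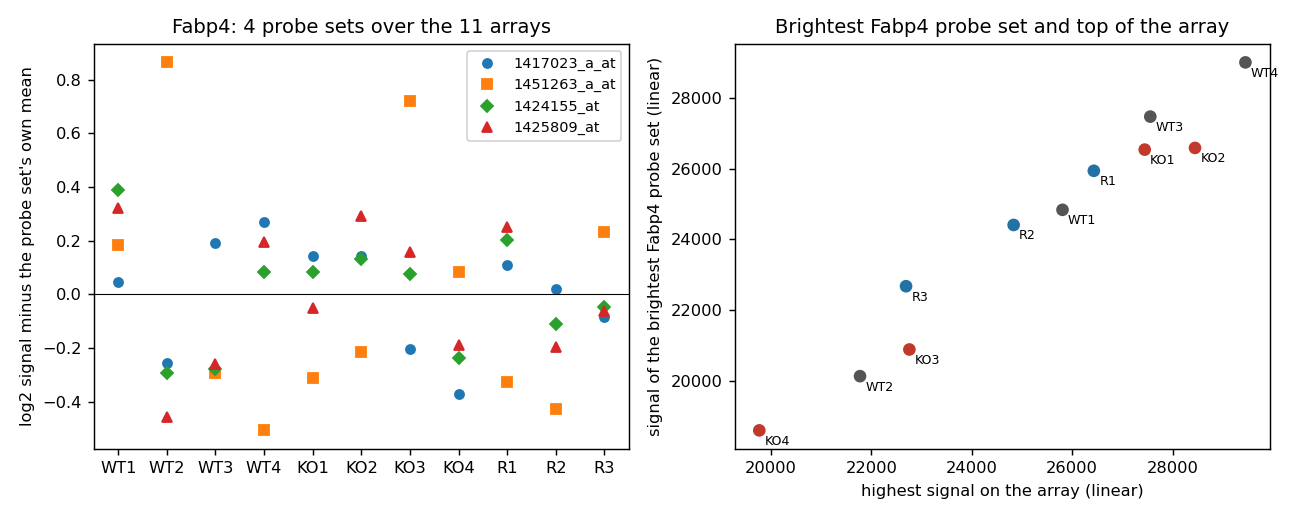
Left, log2 signal of the 4 Fabp4 probe sets in each of the 11 arrays, each minus its own mean over the arrays (WT wild type, KO B1 knockout, R fat rescue). Right, signal of the brightest Fabp4 probe set against the highest signal on the same array, both linear with axes not starting at 0, 1 point per array in the colour of its genotype (grey wild type, red knockout, blue fat rescue): the points run along a line (r 0.981), and 1451263_a_at on the left runs opposite to the brightest.

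Fabp5, the other cytosolic binding protein of this set and also known from macrophages and skin, had overlapping groups. Its signals were 8205.6, 6841.4, 6946.4 and 5788.3 in wild type, 8758.3, 6536.9, 7491.5 and 5279.9 in the knockout, and 5938.8, 9449.1 and 6895.4 in the fat rescue. The wild type range lay inside the knockout range, and the highest array was a rescue array. The log2 difference from wild type was 0.0012 ± 0.17 in the knockout and 0.08 ± 0.18 in the fat rescue (limma adjusted p 0.998 and 0.938). Its second probe set followed the first over the arrays (r 0.832).

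Over all 22 probe sets, 16 had a lower mean in the knockout than in wild type, 16 in the fat rescue than in wild type, and 11 in the fat rescue than in the knockout. An unadjusted p under 0.05 was reached by 4, 4 and 1 of them, and 3, 4 and 1 of these were probe sets of Vldlr; the remaining one was that of Gpihbp1. In the same 3 comparisons, 2.34%, 2.82% and 2.34% of all probe sets were lower at that level. The smallest limma adjusted p was 0.511, 0.4 and 1, where 0.0178%, 0.0155% and 0% of all probe sets passed. Without overlap, the first group lay lower with 1 of the 22 in the knockout against wild type (all probe sets, 1.35%). It did so with 4 in the fat rescue against wild type (2.68%) and 0 in the fat rescue against the knockout (2.67%).

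**Figure D4:**
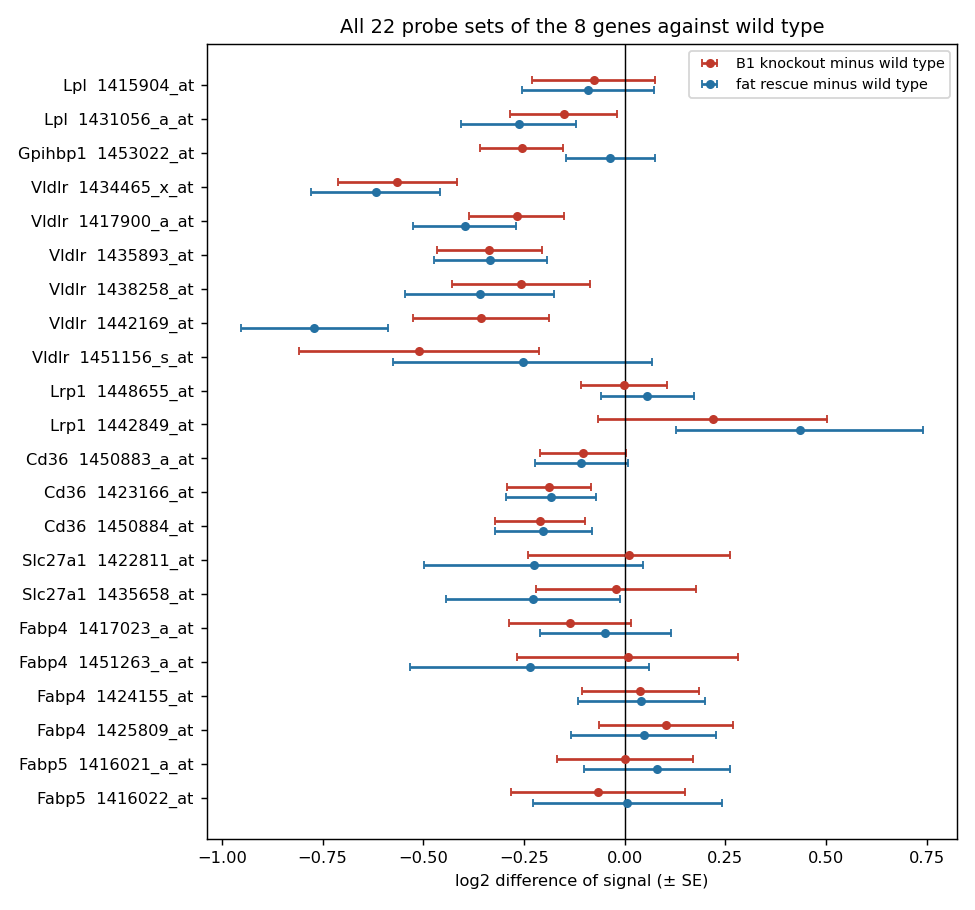
Log2 difference of signal from wild type (point) ± SE (line) for each of the 22 probe sets of the 8 genes, red for B1 knockout and blue for fat rescue, brightest probe set of each gene first. All 6 Vldlr, all 3 Cd36 and both Lpl probe sets and that of Gpihbp1 lie left of 0 in both lines. The brightest Fabp4 probe set also lies left of 0 in both lines. The other Fabp4 probe sets and both Lrp1 probe sets lie on both sides of 0 or to its right.

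Fabp4 and Lpl varied together over the arrays, with a Pearson r of 0.94 (0.959 after each genotype's mean was removed). All the correlations given here are descriptions over the same 11 arrays, which share scaling and hybridisation. Fabp4 had an r of 0.688 with Lrp1 and 0.625 with Cd36, and Vldlr had an r of -0.23 with Fabp4, which was -0.718 within genotypes. Subtracting the adipocyte marker mean lowered the within-genotype SD of Fabp4 from 0.22 to 0.14 and of Lpl from 0.23 to 0.11.

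The genes with the array pattern most like Fabp4 were Gsn (r 0.981), Adipoq (0.974), Scd1 (0.973), Tpt1 (0.971) and Rpl41 (0.971), of which Adipoq encodes adiponectin and Rpl41 a ribosomal protein. For Lpl they were Tpt1 (0.978), Itm2b (0.972), Scd1 (0.962), Gsn (0.961) and Car3 (0.96), so Tpt1, Scd1 and Gsn stood in both lists. The pattern of Vldlr was most like that of Smim10l1 (0.91), Etfrf1 (0.904), Sfr1 (0.888), Tubd1 (0.877) and Cdk16 (0.863), none of them in the lists of the others. For Cd36 they were Rps2 (0.927), Vmn2r26 (0.91), B2m (0.891), Tubb4a (0.891) and Nat8l (0.889).

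The wider pathway was read from 5 lists of 90 genes, of which 70 were measured. None passed in any comparison. In the knockout 43 of the 70 had a lower mean than wild type and 10 had an unadjusted p under 0.05, in the fat rescue 43 and 8, and between fat rescue and knockout 35 were lower and 3 had such a p. Over all genes the shares were 46.3% lower and 7.3% with such a p in the knockout, 44.3% and 8.09% in the fat rescue, and 47.4% and 3.81% between fat rescue and knockout. The genes named below are those with the smallest F test p of their list.

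Among 16 partners of lipoprotein lipolysis, 9 were lower in the knockout, with a median log2 difference of -0.04. Angptl4, a secreted inhibitor of the lipase, had means of 4976.8 ± 896.7 (SD, n = 4) in wild type, 3943.7 ± 814.1 (n = 4) in the knockout and 3995.3 ± 714.3 (n = 3) in the fat rescue. Its log2 difference was -0.35 in the knockout (limma adjusted p 0.701) and -0.32 in the fat rescue (adjusted p 0.676). Sel1l, which helps the lipase leave the endoplasmic reticulum, differed by 0.10 and 0.15 in the same comparisons, and Apoc1 by -0.08 and -0.34. Apoc3, an apolipoprotein made mainly in liver, read near the array medians, at 51.375 ± 17.85 in wild type.

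Among 15 lipoprotein receptors and their partners, 7 were lower in the knockout and the median was 0.0004. Lrpap1, a chaperone of Vldlr, Lrp1 and related receptors, had means of 3717.0 ± 338.5 in wild type, 3192.9 ± 289.8 in the knockout and 2861.5 ± 149.5 in the fat rescue. Its log2 difference was -0.22 in the knockout and -0.37 in the fat rescue (limma adjusted p 0.682 and 0.371). Lsr, a lipoprotein receptor best known in liver, differed by 0.36 and 0.45 at signals near 100, and Lrp6, a Wnt co-receptor of the same family, by -0.12 and -0.21.

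Among 16 genes of fatty acid transport and activation, 9 were lower in the knockout, with a median of -0.03. Ffar4, a receptor for long-chain fatty acids on fat cells, had means of 486.68 ± 43.35, 376.4 ± 55.7 and 369.17 ± 55.85 in wild type, knockout and fat rescue. Its log2 differences from wild type were -0.38 and -0.41 (limma adjusted p 0.631 and 0.522). Cavin1, a coat protein of caveolae, differed by -0.20 and -0.14.

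Among the 6 binding proteins measured, 5 were lower in the knockout, with a median of -0.19. Rbp4, a secreted retinol carrier of the same protein superfamily as Fabp4, had means of 7760.7 ± 679.5, 5802.3 ± 763.2 and 5501.8 ± 552.0. Its log2 differences from wild type were -0.43 and -0.50 (limma adjusted p 0.424 and 0.319), the smallest F test p of all the pathway lists. Acbd4, which binds acyl-coenzyme A, differed by -0.36 and -0.37 (adjusted p 0.628 and 0.533).

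Among 17 transcriptional regulators, 13 were lower in the knockout and 14 in the fat rescue, with medians of -0.12 and -0.10. Srebf1, a driver of lipid synthesis, differed by -0.38 and -0.36 (limma adjusted p 0.682 and 0.618), and Ppard by -0.43 and -0.08 (adjusted p 0.650 and 0.932). Cebpb, an early factor of fat cell differentiation, differed by -0.07 and -0.42, and Meox2, a factor of capillary endothelial cells, by -0.02 and 0.40 (adjusted p 0.474 and 0.575 in the fat rescue). The adipocyte marker list had medians of -0.25 in the knockout and -0.21 in the fat rescue, and its part in these values was not tested.

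**Figure D5:**
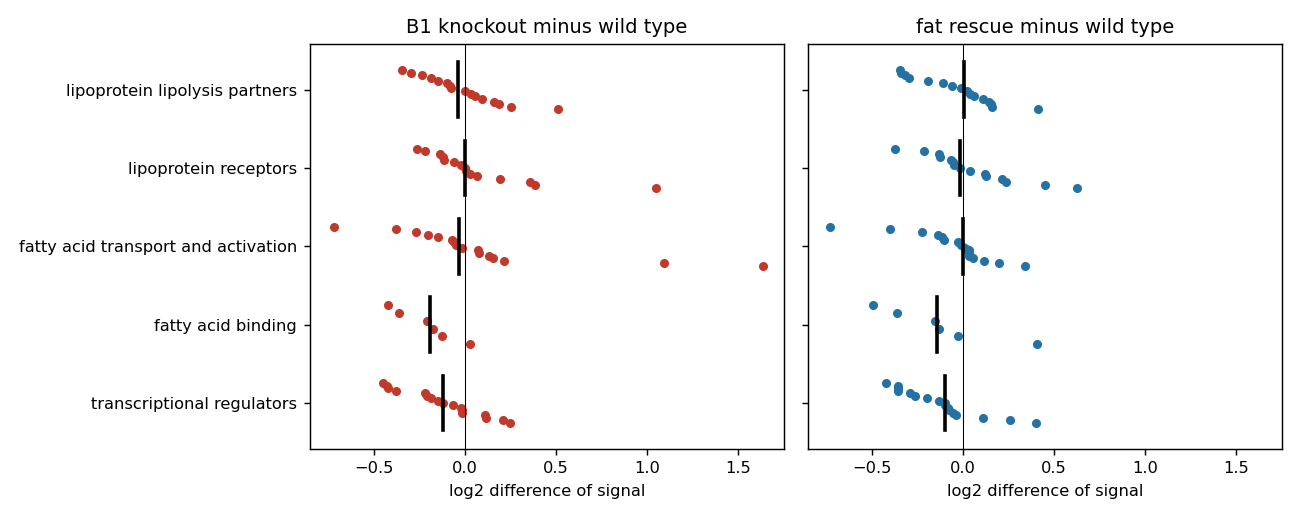
Log2 difference of signal from wild type for each measured gene of the 5 pathway lists, 1 point per gene, with the list's median as a black bar, for B1 knockout (left) and fat rescue (right). The medians of the binding proteins and the transcriptional regulators lie left of 0 in both panels, between -0.19 and -0.10, and the other 3 lie within 0.04 of it.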

How the data were processed

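Total RNA was amplified and biotin-labelled, and hybridised to 1 array per sample. The authors' deposited values are linear intensities per probe set, produced with GCOS 1.3 and MAS5 per the submitters' processing notes; the values show a trimmed mean of 200 (2% off each end) on every array. Of 45101 probe sets, 64 controls were left out, and of the rest 34945 carried 1 gene symbol, 932 several and 9160 none. Values were taken as log2 (1 value of 0 set to 0.1), the brighter 60% of probe sets were kept (27022), and the brightest stood for each gene. One limma (3.58.1, R 4.3.3) model with trend held all 11 arrays; exact permutation tests used scipy 1.17.1. The fit was tested on simulated data. Pathway genes named are up to 4 per list by F test p, and likeness is the 5 highest Pearson r. Bdkrb1 was added as the transgene's cargo. The genes and lists were chosen with earlier results of these data known. Arrays of different genotypes with the same replicate number had r of -0.14 to 0.35 over 10 pairs, after each genotype's mean was removed. Those with different numbers had r of -0.31 to 0.28. The pairs of number 1 had r of 0.14, 0.19 and 0.35, the last for wild type 1 and fat rescue 1, which stood apart. Whether the numbers mark a shared batch was not tested. Protein identity of Fabp4 and Fabp5 was planned and not computed here.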

Additional observations from a re-analysis of the deposited data

How the results depend on the processing

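None of the 24 gene results passed under any of 22 alternatives (528 values, lowest limma adjusted p 0.109, range for Vldlr 0.109 to 0.798 in the knockout and 0.218 to 0.884 in the fat rescue). Leaving out both arrays that stand apart, and the values relative to cell type markers, were chosen after seeing the data. The direction was kept under all 22 for Vldlr in the knockout (-0.71 to -0.38) and the fat rescue (-0.74 to -0.46) against wild type, Gpihbp1 in the knockout against wild type (-0.41 to -0.17) and in the fat rescue against the knockout (0.15 to 0.27), and Slc27a1 in the fat rescue against wild type (-0.33 to -0.075). The other 19 reversed at least once, all of them smaller than 0.24 in size; the cause was not tested. Quantile normalization gave, in the knockout against wild type, 0.052 for Lpl, 0.020 for Cd36 and 0.051 for Lrp1, and in the fat rescue against wild type 0.014 for Fabp4, 0.0061 for Lpl, 0.0018 for Cd36 and 0.049 for Gpihbp1. Median centring, which moved the median of all genes to -0.13, 0.058 and -0.075 for knockout minus wild type, fat rescue minus knockout and fat rescue minus wild type, gave -0.15 for Fabp5 and -0.14 for Slc27a1 in the first, 0.033 for Lpl and 0.042 for Cd36 in the second, and -0.022 for Fabp5 and -0.046 for Lrp1 in the third. It also moved the median of the 8 genes in the knockout against wild type to -0.24, with 8 of 8 lower. Quantile normalization turned that median to 0.034, with 3 of 8 lower, of which Fabp4 had a difference that rounded to 0. It turned the median of the fat rescue against wild type to 0.010, with 2 of 8 lower. Averaging the probe sets of each gene gave 0.0038 for Fabp4, -0.032 for Fabp5, -0.0051 for Slc27a1 and 0.11 for Lrp1 in the knockout against wild type, and -0.053 for Fabp4 and 0.0023 for Cd36 in the fat rescue against the knockout. With the replicate block, Fabp5 gave -0.027 in the fat rescue against the knockout and -0.026 against wild type. With this block, 8 genes passed in the knockout against wild type, 2 in the fat rescue against wild type and 2 by the F test. The labels do not say what the numbers share, and the block changed no call on the 8 genes. Without both arrays that stand apart, Lrp1 in the fat rescue gave -0.021 against the knockout and -0.068 against wild type.

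Leaving out 1 array at a time gave, in the knockout against wild type, -0.11 to 0.13 for Fabp5, -0.19 to 0.018 for Lpl, -0.29 to 0.20 for Slc27a1 and -0.080 to 0.067 for Lrp1. In the fat rescue against the knockout it gave -0.013 to 0.16 for Fabp4, -0.11 to 0.23 for Fabp5, -0.11 to 0.079 for Lpl, -0.17 to 0.046 for Vldlr, -0.089 to 0.034 for Cd36, -0.43 to 0.064 for Slc27a1 and -0.021 to 0.14 for Lrp1. In the fat rescue against wild type it gave -0.15 to 0.021 for Fabp4, -0.11 to 0.23 for Fabp5, -0.21 to 0.0022 for Lpl, -0.11 to 0.017 for Gpihbp1 and -0.023 to 0.12 for Lrp1. The counts of genes passing moved as follows. In the knockout against wild type (5) they were 10 with median centring, 8 with all probe sets singly, 2 without the trend, 2 with only the groups compared, 14 without both arrays that stand apart, and 2 to 14 without 1 array, with 14 without wild type 1, 3 without wild type 4 or knockout 4, and 2 without wild type 3, knockout 1 or knockout 2. In the fat rescue against wild type (2) they were 5 with median centring, 6 with the upper 40% of probe sets, 1 with the mean of probe sets, 7 singly, 1 without the trend, 1 with only the groups compared, 6 without both arrays, and 1 to 8 without 1 array, with 8 without wild type 1, 5 without knockout 3, 4 without knockout 4, 3 without knockout 1, and 1 without any other array. By the F test (5) they were 2 with the mean of probe sets, 8 singly, 1 without the trend, and 1 to 7 without 1 array. Between fat rescue and knockout the count was 0 in all.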
